A study of Mus musculus with 12 samples.

Results

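The interferon-stimulated genes were taken as a list of 40 gene symbols and looked up in the gene annotation of the array platform. A gene was measured where at least 1 probe set carried that symbol and no other, and the brightest such probe set stood for the gene. This gave 35 of the 40, out of 19938 genes measured on the arrays. Isg15, Gbp2, Gbp6 and Igtp were on probe sets shared with other genes, and Ifi44 was not in the annotation. Measured signal enters the rule only in the choice of the brightest probe set, and the list was drawn up with earlier results of these data known.

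Interferons are secreted proteins that cells release when they sense foreign or misplaced nucleic acid, or, for interferon gamma, when T and NK cells are activated. Type I and type III interferons act through receptors and Janus kinases to assemble a complex containing STAT2 and IRF9 that binds the interferon-stimulated response element (ISRE), while interferon gamma acts mainly through the gamma-activated site (GAS). The genes switched on in this way encode nucleic acid sensors, transcription factors that extend the response, antiviral effectors and parts of the antigen-presentation machinery. In the gut, the commensal flora is known to keep a low tonic interferon response in place.

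Expression was measured in colon tissue from 12 male wild-type C57BL/6 mice, 7 weeks old at the start and 8 weeks and 3 days old in the sample labels, with 3 mice and 1 array per mouse in each of 4 groups. DSS+L-Arg mice drank 4% dextran sulfate sodium (DSS), a polysaccharide that injures the colonic epithelium, for 6 days and then 1% L-arginine (L-Arg) for 4 days. DSS mice drank 4% DSS for 6 days and then water for 4 days. Control+L-Arg mice received 1% L-Arg for 4 days without DSS, and control mice received water alone. All were sacrificed on day 10. Each array read RNA from whole tissue, so fewer cells of a type and less RNA per cell cannot be told apart. By the methods of the study, a proximal and a distal piece of each colon were combined for RNA. Values are log2 signals, on which a difference of 1 is a doubling, and array medians lay between 6.49 and 6.64. All 15 markers of colonic epithelium were above the median of all genes (lowest Cdx1, 10.36, against 7.05). Of the 35 interferon-stimulated genes, 28 were above that median, and their mean levels over the 12 mice ran between 4.66 for Mx2 and 11.04 for Irf7.

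The upstream sequences of these genes were searched for the elements through which interferons are known to act. Stretches of 300 bases around annotated starts (250 before to 50 after) were read from RefSeq, build GRCm38.p6, and were found for 25 of the 35 genes. The ISRE was searched as GAAANNGAAA on either strand, which reads TTTCNNTTTC on the other strand. It was present for 13 of the 25 genes (52.0%) and for 3.99% of all 27025 genes in the table. The GAS was searched as TTCNNNGAA, which reads the same on both strands, and was present for 7 of the 25 (28.0%) and for 9.6% of all genes. Matches that overlapped were counted separately. A match describes the letters in the window and is not a mapped binding site. The 60-base stretches below are of genes with an upstream match, chosen from the effectors and signaling proteins described further on. Ddx58 has an ISRE in its window but none upstream of the start, so no stretch is shown for it. All lie upstream of the annotated start, capitals mark the ISRE in the first 5 and the GAS in the last pair, and each is written 5′ to 3′ on the strand of its gene.
Ifit1 (chr19:34640779-34640838, plus strand): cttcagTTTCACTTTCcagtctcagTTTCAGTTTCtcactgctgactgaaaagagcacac
Ifit3 (chr19:34583382-34583441, plus strand): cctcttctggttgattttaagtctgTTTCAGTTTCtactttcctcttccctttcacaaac
Rsad2 (chr12:26456538-26456597, minus strand): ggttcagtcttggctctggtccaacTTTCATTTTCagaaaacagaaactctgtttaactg
Oas3 (chr5:120777700-120777759, minus strand): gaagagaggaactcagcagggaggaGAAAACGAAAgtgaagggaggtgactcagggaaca
Stat2 (chr10:128270251-128270310, plus strand): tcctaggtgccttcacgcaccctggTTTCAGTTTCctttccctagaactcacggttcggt
Irf1 (chr11:53769898-53769957, plus strand): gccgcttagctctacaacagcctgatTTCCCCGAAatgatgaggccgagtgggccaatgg
Psmb8 (chr17:34198072-34198131, plus strand): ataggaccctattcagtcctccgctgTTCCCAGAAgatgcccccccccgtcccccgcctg

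Ifit1 showed a pair of ISRE matches, beginning 104 and 85 bases before its start, and the GAS of Irf1 began 90 bases before its start. The match nearest the start in Ifit1 and the matches shown for Ifit3 and Stat2 had the same 10 letters, TTTCAGTTTC, while the other match of Ifit1 read TTTCACTTTC and a further match of Ifit3 lies outside the stretch shown. Irf7, Irf9, Ifit2, Cmpk2 and Tap1 were among the 12 genes without an exact ISRE in the window.

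Across the 35 genes, DSS+L-Arg mice had the higher mean than DSS mice for every member, while DSS mice had the lower mean than control mice for 28 members, a direction shown by 53.1% of all genes. The median log2 fold change of the members was 0.69 in DSS+L-Arg versus DSS (0.06 over all genes) and -0.33 in DSS versus control (-0.01 over all genes). DSS mice enter both comparisons, so the opposite signs share the values of those 3 mice. In DSS+L-Arg versus control, which leaves out the DSS mice, the median was 0.37 (0.03 over all genes). The median in DSS versus control was -0.20 without control mouse 1 and -0.44 without DSS mouse 1. In DSS+L-Arg versus control it was 0.25 without control mouse 2, 0.57 without control mouse 1 and 0.61 without DSS+L-Arg mouse 3. Few single members passed the test across all genes.

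The mice of each group differed together. Taken as the median over the 35 genes of the difference from the control mean, the DSS+L-Arg mice were at 0.80, 0.43 and 0.10, the DSS mice at -0.07, -0.58 and -0.34, the control+L-Arg mice at -0.27, 0.01 and 0.50, and the control mice at 0.22, -0.26 and 0.01. All 3 DSS+L-Arg mice were above all 3 DSS mice, and the control and control+L-Arg mice lay across both ranges. DSS+L-Arg mouse 1 had the highest signal of the 12 mice for 16 members and control+L-Arg mouse 3 for 11, while DSS mouse 2 had the lowest for 24. Within the control group, mouse 1 was the highest for 28 members and mouse 2 the lowest for 28, so mice without DSS also differed from each other across most of the list. The matching ranks over all genes were not counted. As deviations from group means, the members had a median pairwise correlation of 0.66, with 558 of 595 pairs above 0. The counts over members are therefore not separate observations.

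**Figure D1:**
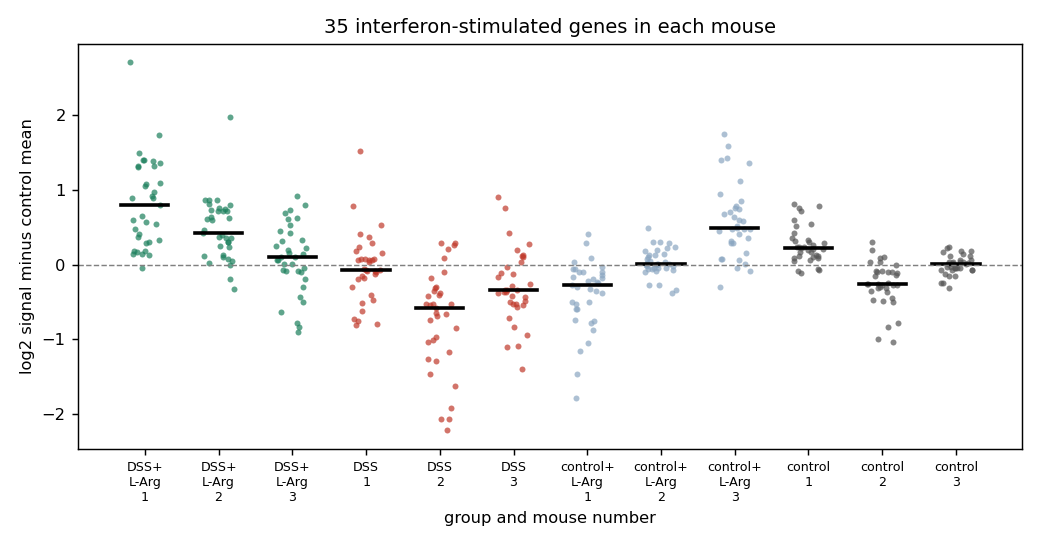
Log2 signal of each of the 35 interferon-stimulated genes (points) in each of the 12 mice, as the difference from that gene's mean in the 3 control mice (y axis), with the black bar at the median of the 35 genes. The medians of the DSS+L-Arg mice (0.80, 0.43 and 0.10) all lie above those of the DSS mice (-0.07, -0.58 and -0.34), and the medians of the control+L-Arg mice span -0.27 to 0.50.

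L-Arg given after DSS was compared with DSS alone to ask which genes responded to the supplement during colitis. All 35 members were higher on average in DSS+L-Arg mice, a direction shown by 62.8% of all genes. None passed an adjusted p under 0.05 (limma, Benjamini-Hochberg over all genes), the background being 0.115% of all genes higher and 0.522% lower, and the lowest adjusted p values were 0.0558 for Psmb9 and 0.0575 for Irf7. At an unadjusted p under 0.05, 24 members were higher and 0 lower, against 7.99% and 5.53% of all genes. In 21 members every DSS+L-Arg mouse was above every DSS mouse, against 11% of all genes, and in 0 members was the order the opposite one, against 5.6%. A stricter p under 0.01 together with a fold change over 2, the limits used by the study, selected Ifit2, Irf7, Stat2 and Zbp1, against 0.11% of all genes. Without DSS mouse 2, 16 members had an unadjusted p under 0.05 and the median log2 fold change was 0.62. Without DSS+L-Arg mouse 1 these were 17 and 0.56, and with arrays weighted by their fit the count was 14. For these alternative fits the share of all genes was not counted. Without DSS mouse 1, Irf7, Psmb8, Psmb9, Ifi35 and Oasl1 passed the adjusted threshold, and without DSS mouse 3, Mx1 did.

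DSS was compared with control to ask what colitis did to these genes. Irf7 fell in DSS mice and was the 1 member to pass the adjusted threshold, with 0 members higher, against 2.23% of all genes lower and 1.8% higher. At an unadjusted p under 0.05, Cmpk2, Ifi35, Ifih1, Irf7, Oas1a and Rsad2 were lower and Iigp1 was higher, which is 6 and 1 of 35 against 11.6% and 7.96% of all genes. Irf7 was also selected by p under 0.01 with a fold change over 2, against 0.813% of all genes. The DSS mice were entirely below the control mice for Cmpk2, Dhx58, Ifi35, Irf7 and Rsad2, and entirely above them for Gbp3 and Iigp1, against 14.3% and 10.7% of all genes. These shares were near the background. The number of members lower at an unadjusted p under 0.05 was 2 without control mouse 1, 4 without control mouse 3, 2 without DSS mouse 2 and 13 without DSS mouse 1. The count of members below all control mice was 18 without control mouse 2 and 18 without DSS mouse 1, with fewer mice to overlap, and that of members above all control mice was 4 without control mouse 1 and 5 without DSS mouse 2. The share of all genes was not counted for these smaller fits, so their counts cannot be set against it.

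**Figure D2:**
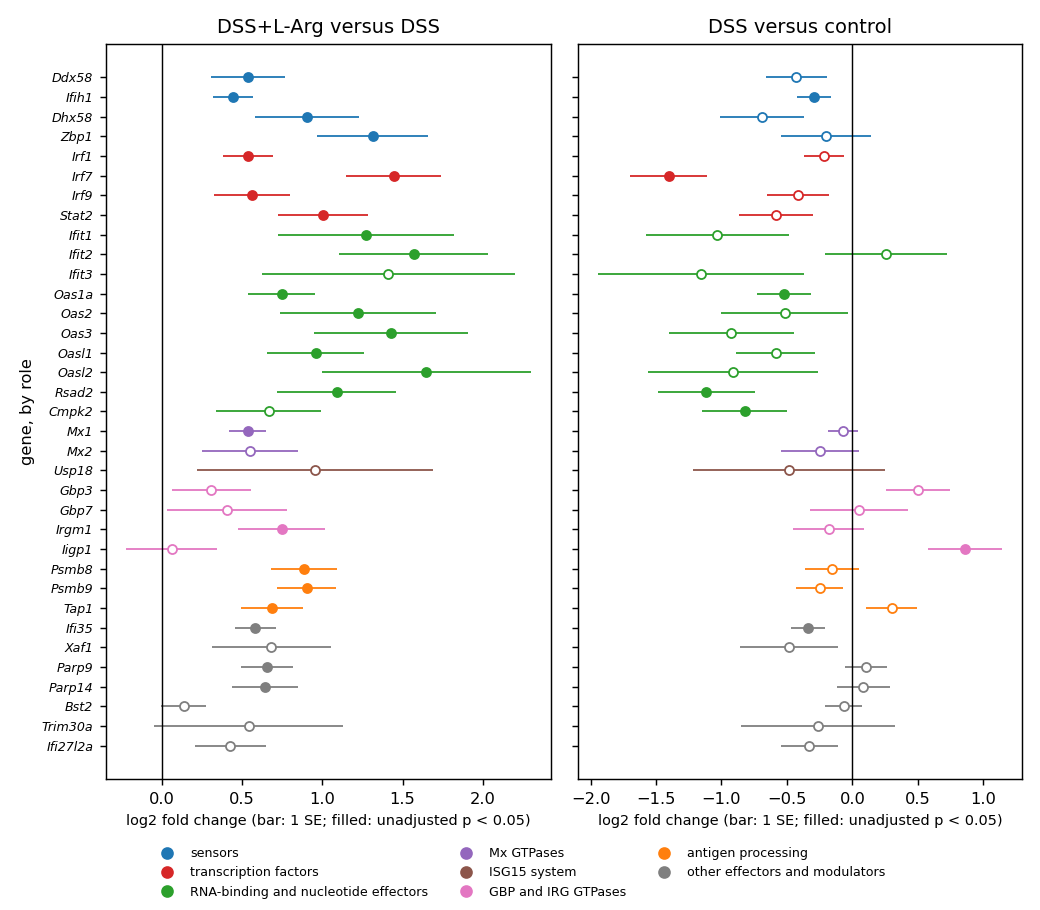
Log2 fold change of each member (x axis, points, with bars of 1 SE from limma over all 12 arrays) in DSS+L-Arg versus DSS (left) and DSS versus control (right), with genes down the page in the order of their roles, coloured by role, and filled points for an unadjusted p under 0.05. All 35 points lie right of 0 on the left, and 28 of 35 lie left of 0 on the right, where Iigp1 is the farthest to the right (0.86). Both panels use the same 3 DSS mice.

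Among the transcription factors, Irf7 encodes the factor that amplifies type I interferon production and is itself strongly interferon-inducible. Its log2 signal was 11.39, 11.54 and 11.50 in the DSS+L-Arg mice, 10.68, 9.37 and 10.04 in the DSS mice, 10.66, 11.58 and 11.45 in the control+L-Arg mice, and 11.56, 11.35 and 11.40 in the control mice. The DSS mice spread widely below a narrow band formed by the DSS+L-Arg and control mice, and control+L-Arg mouse 1 lay just below the highest DSS mouse. Irf7 averaged 10.03 ± 0.66 in DSS mice and 11.44 ± 0.11 in control mice (SD, n = 3 each), a log2 fold change of -1.40 (SE 0.29, limma adjusted p = 0.0247), or 0.378 of the control level. In DSS+L-Arg mice it averaged 11.48 ± 0.07, which was 1.44 above the DSS mice (SE 0.29, 2.72-fold, adjusted p = 0.0575) and 0.04 above the control mice (SE 0.29, adjusted p = 0.969). The effect of L-Arg after DSS minus its effect without DSS was 1.65 (SE 0.42, adjusted p = 0.182), the lowest adjusted p of any member for that contrast. The fall in DSS did not pass the threshold without control mouse 1, 2 or 3 (adjusted p = 0.0946, 0.0587 and 0.0906), without DSS mouse 2 (-1.07, adjusted p = 0.0550), or in a fit of the DSS and control arrays alone (adjusted p = 0.0999), and without DSS mouse 1 it was -1.73 (adjusted p = 0.00422).

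Stat2 encodes the partner of IRF9 in the complex that binds the ISRE, and an ISRE match of its own is shown above. Its signal was 9.47, 9.22 and 9.04 in the DSS+L-Arg mice, 8.62, 7.64 and 8.45 in the DSS mice, 8.22, 8.55 and 9.17 in the control+L-Arg mice, and 9.11, 8.51 and 8.84 in the control mice. Every DSS+L-Arg mouse was above every DSS mouse, while the ranges of DSS and control mice overlapped. The log2 fold change was 1.00 in DSS+L-Arg versus DSS (SE 0.28, adjusted p = 0.165) and -0.58 in DSS versus control (SE 0.28, adjusted p = 0.288). Irf9, the DNA-binding partner in that complex, differed by 0.56 (0.37 without DSS+L-Arg mouse 1) and -0.41 in these comparisons.

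Irf1, a factor known to be induced by interferon gamma and with a GAS match shown above, was at 11.04, 11.08 and 10.72 in the DSS+L-Arg mice, 10.69, 10.24 and 10.28 in the DSS mice, 10.40, 10.57 and 10.32 in the control+L-Arg mice, and 10.67, 10.82 and 10.38 in the control mice. The DSS+L-Arg mice were above the DSS and the control+L-Arg mice without overlap and overlapped the control mice. The log2 fold change in DSS+L-Arg versus DSS was 0.54 (SE 0.15, adjusted p = 0.175). A second, dimmer probe set of Irf1 differed by 0.32 between the same means.

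**Figure D3:**
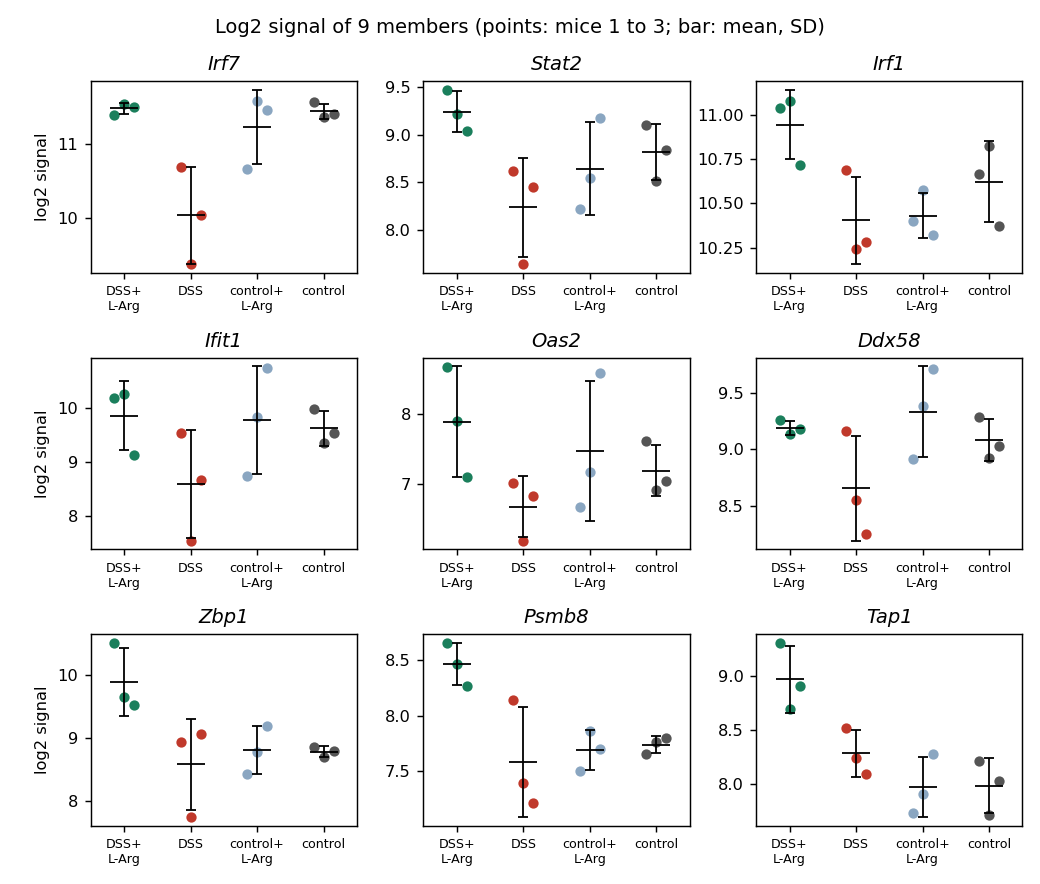
Log2 signal (y axis, scales differ between panels) of 9 members in the DSS+L-Arg, DSS, control+L-Arg and control mice, with a point for each of the 3 mice and a horizontal bar for the mean with its SD. For Irf7 the DSS mice (9.37 to 10.68) lie below the DSS+L-Arg mice (11.39 to 11.54) and the control mice (11.35 to 11.56), and for Tap1 all DSS+L-Arg mice (8.70 to 9.31) lie above all other mice.

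Of the nucleic acid sensors, Ddx58 (RIG-I), Ifih1 (MDA5) and Dhx58 (LGP2) recognise viral RNA in the cytosol, and Zbp1 binds Z-form nucleic acid and can start cell death. Zbp1 was at 10.52, 9.66 and 9.52 in the DSS+L-Arg mice, 8.94, 7.75 and 9.06 in the DSS mice, 8.44, 8.79 and 9.20 in the control+L-Arg mice, and 8.87, 8.70 and 8.79 in the control mice. The DSS+L-Arg mice were above the mice of all other groups, which overlapped each other. Its log2 fold change was 1.31 against DSS (SE 0.34, 2.49-fold, adjusted p = 0.139), 1.11 against control (adjusted p = 0.246) and 1.09 against control+L-Arg (adjusted p = 0.181).

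Ddx58 was at 9.26, 9.14 and 9.18 in the DSS+L-Arg mice, 9.16, 8.55 and 8.25 in the DSS mice, 8.91, 9.38 and 9.71 in the control+L-Arg mice, and 9.29, 8.93 and 9.03 in the control mice. DSS mouse 1 reached the DSS+L-Arg range and the other DSS mice were below all mice of the other groups. Ddx58 differed by 0.54 in DSS+L-Arg versus DSS (SE 0.23, adjusted p = 0.342), or 0.34 without DSS mouse 3 and 0.33 with array weights, and by -0.43 in DSS versus control (SE 0.23, adjusted p = 0.345). Ifih1 and Dhx58 differed by 0.44 and 0.91 between DSS+L-Arg and DSS, without overlap of the mice, and by -0.29 (-0.19 without control mouse 1) and -0.69 between DSS and control.

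Of the roles, the 10 RNA-binding and nucleotide effectors had the largest median difference in DSS+L-Arg versus DSS and in DSS versus control. This role comprises the IFIT proteins, which bind foreign RNA, the oligoadenylate synthetases of the OAS family, which activate RNase L, the related OASL proteins, the radical SAM enzyme viperin (Rsad2) and the nucleotide kinase Cmpk2 encoded beside it. Their median log2 fold change was 1.25 in DSS+L-Arg versus DSS, with a range of 0.67 for Cmpk2 to 1.65 for Oasl2. Of the 10, 8 were higher at an unadjusted p under 0.05, against 7.99% of all genes. In DSS versus control their median was -0.87, with a range of -1.16 for Ifit3 to 0.26 for Ifit2. Rsad2, Cmpk2 and Oas1a were lower at an unadjusted p under 0.05, against 11.6% of all genes. Their adjusted p values were 0.164 or higher in the first of these comparisons and 0.119 or higher in the second. Without DSS mouse 2, Oasl2 and Oas3 differed by 0.99 and 0.93 in DSS+L-Arg versus DSS.

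Ifit1 was at 10.19, 10.26 and 9.12 in the DSS+L-Arg mice, 9.54, 7.55 and 8.67 in the DSS mice, 8.74, 9.84 and 10.74 in the control+L-Arg mice, and 9.98, 9.34 and 9.54 in the control mice. All groups overlapped, and the spread among the control+L-Arg mice was as wide as that among the DSS mice. Mean Ifit1 differed by 1.27 in DSS+L-Arg versus DSS (SE 0.55, adjusted p = 0.342) and -1.03 in DSS versus control (SE 0.55, adjusted p = 0.332). The first was 0.75 without DSS mouse 2 (adjusted p = 0.643) and 0.66 with array weights.

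Oas2 was at 8.69, 7.90 and 7.09 in the DSS+L-Arg mice, 7.02, 6.18 and 6.82 in the DSS mice, 6.66, 7.17 and 8.59 in the control+L-Arg mice, and 7.61, 6.91 and 7.04 in the control mice. DSS+L-Arg mouse 3 was just above DSS mouse 1, and control+L-Arg mouse 3 was close to the top of the DSS+L-Arg range. Mean Oas2 differed by 1.22 in DSS+L-Arg versus DSS (SE 0.49, adjusted p = 0.308) and -0.52 in DSS versus control (SE 0.49, adjusted p = 0.630). Ifit2 in DSS+L-Arg mice had log2 fold changes of 1.83 against control (SE 0.46, adjusted p = 0.180) and 1.63 against control+L-Arg (SE 0.46, adjusted p = 0.149), and DSS+L-Arg mouse 3 (6.85) was below DSS mouse 3 (6.97).

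The antigen-processing members, Psmb8 and Psmb9, which are catalytic subunits of the immunoproteasome, and Tap1, a subunit of the transporter that carries peptides into the endoplasmic reticulum, lie on chromosome 17 and had their highest mean in DSS+L-Arg mice. Tap1 was at 9.31, 8.70 and 8.90 in the DSS+L-Arg mice, 8.52, 8.24 and 8.09 in the DSS mice, 7.73, 7.90 and 8.28 in the control+L-Arg mice, and 8.21, 7.71 and 8.02 in the control mice. The DSS+L-Arg mice were above all 9 other mice. The log2 fold change was 0.69 against DSS (SE 0.19, adjusted p = 0.168), 0.99 against control (SE 0.19, adjusted p = 0.0997) and 1.00 against control+L-Arg (SE 0.19, adjusted p = 0.0628), the lowest adjusted p among the members in the comparisons with control and control+L-Arg.

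Psmb8 was at 8.66, 8.47 and 8.27 in the DSS+L-Arg mice, 8.14, 7.39 and 7.20 in the DSS mice, 7.50, 7.86 and 7.69 in the control+L-Arg mice, and 7.65, 7.76 and 7.79 in the control mice. DSS mouse 1 stood above the other DSS mice and above every mouse without DSS. The log2 fold change was 0.89 against DSS (SE 0.21, adjusted p = 0.0940), and without DSS mouse 1 it was 1.17 (adjusted p = 0.00421). Psmb9 differed by 0.90 against DSS (SE 0.18), 0.65 against control and 0.74 against control+L-Arg.

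Guanylate-binding proteins (Gbp) and immunity-related GTPases (Irgm1, Iigp1) act on membranes around intracellular microbes and respond strongly to interferon gamma. Their median log2 fold change was 0.27 in DSS versus control, with Irgm1 below 0 (-0.18), and 0.36 in DSS+L-Arg versus DSS. Iigp1 was 0.86 higher in DSS mice than in control mice (SE 0.28, adjusted p = 0.116), or 0.53 without DSS mouse 1, and differed by 0.06 between DSS+L-Arg and DSS mice (SE 0.28, adjusted p = 0.939). Gbp3 differed by 0.50 in DSS versus control (SE 0.24, adjusted p = 0.294) and by 0.31 in DSS+L-Arg versus DSS (SE 0.24, adjusted p = 0.601). The Mx GTPases, which trap viral nucleocapsids, differed by 0.54 for Mx1 (SE 0.11, adjusted p = 0.0695) and 0.55 for Mx2 (SE 0.30, adjusted p = 0.447) in DSS+L-Arg versus DSS. C57BL/6 mice are known to carry a defective Mx1 gene, and Mx2 was the dimmest member.

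Usp18, the protease that removes ISG15 from proteins and dampens receptor signaling, differed by 0.96 in DSS+L-Arg versus DSS, with a wide error (SE 0.73, adjusted p = 0.590). Of the remaining 7 effectors and modulators, Ifi35, Parp9 and Parp14 were higher at an unadjusted p under 0.05 in DSS+L-Arg versus DSS (7.99% of all genes). Their log2 fold changes were 0.58, 0.65 and 0.64. Parp9 and Parp14, which encode members of the ADP-ribosyltransferase family, were also 0.76 and 0.73 higher against control (adjusted p = 0.120 and 0.218). Xaf1, Trim30a, Ifi27l2a and Bst2, the last of which encodes the virion-tethering protein tetherin, had log2 fold changes of 0.68, 0.54, 0.43 and 0.14 against DSS with unadjusted p values over 0.05.

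Isg15, Gbp2, Gbp6 and Igtp were read through probe sets that also match other genes, so these values cannot be assigned to 1 gene and were not tested. The probe set of Isg15, a ubiquitin-like modifier, and Gm9706 was at 5.86, 5.97 and 5.38 in the DSS+L-Arg mice and 5.54, 5.20 and 5.49 in the DSS mice. That of Gbp2 and Gbp2b was at 9.93, 7.87 and 8.40 in the DSS+L-Arg mice and 8.43, 7.62 and 7.75 in the DSS mice. That of Igtp and Irgm2 was at 9.01, 8.40 and 7.88 in the DSS+L-Arg mice and 7.62, 6.96 and 7.59 in the DSS mice. Of these 3, the DSS+L-Arg mice were above the DSS mice without overlap for Igtp and Irgm2, and the means differed by 0.33, 0.80 and 1.04 for the probe sets of Isg15, Gbp2 and Igtp. The probe set of Gbp6, shared with Gbp4, Gbp8, Gbp9, Gbp10 and Gbp11, was at 6.61, 6.33 and 5.95 in the DSS+L-Arg mice and 6.56, 6.01 and 6.14 in the DSS mice, and its means differed by 0.06. In DSS versus control, the means of the probe sets of Isg15, Gbp2, Gbp6 and Igtp differed by -0.25, 0.56, 0.46 and -0.16. In DSS+L-Arg versus control, the same probe sets differed by 0.08, 1.36, 0.52 and 0.88. Their means in control+L-Arg mice were 5.62, 7.22, 6.23 and 7.62.

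The DSS+L-Arg mice were also compared with the mice without DSS. Against control, 33 of the 35 members were higher on average (56.2% of all genes), 0 passed the adjusted threshold (0.0301% of all genes higher and 0.0351% lower), 10 had an unadjusted p under 0.05 with a higher value (6.96% of all genes), and 12 did not overlap (13.5% of all genes). The 10 were Gbp3, Ifit2, Iigp1, Mx1, Parp14, Parp9, Psmb8, Psmb9, Tap1 and Zbp1. Against control+L-Arg, 29 of the 35 were higher (58.8% of all genes), 0 passed (0.201% higher and 0.105% lower), 10 had an unadjusted p under 0.05 (8.95%) and 10 did not overlap (12.9%). With fewer mice to overlap, 19 members did not overlap control without control mouse 1 and 22 without DSS+L-Arg mouse 3. For control+L-Arg this was 16 without control+L-Arg mouse 3 or DSS+L-Arg mouse 3. The share of all genes was not counted for these smaller sets. Members with a higher mean than control were 26 without control mouse 2 and 34 without control mouse 1. Those with a higher mean than control+L-Arg were 21 without control+L-Arg mouse 1 and 34 without control+L-Arg mouse 3. These counts also have no share of all genes beside them. The median log2 fold change against control+L-Arg was 0.31 (0.04 over all genes), or 0.13 without DSS+L-Arg mouse 1 and 0.57 without control+L-Arg mouse 3. Ifit2 and Zbp1 had p under 0.01 with a fold change over 2 against control (0.196% of all genes) and against control+L-Arg (0.296%). The means of Irf7, Ifit1, Ifit3, Rsad2 and Cmpk2 were near those of both groups. Their log2 fold changes were -0.16 for Cmpk2 to 0.25 for Ifit3 against control and -0.14 for Cmpk2 to 0.25 for Irf7 against control+L-Arg. The SE was 0.29 for Irf7, 0.55 for Ifit1 and 0.79 for Ifit3, so the nearness of Ifit1 and Ifit3 is only loosely determined.

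Without DSS, the members had no common direction under L-Arg. In control+L-Arg versus control, 20 members were higher and 15 lower on average (46.5% and 53.5% of all genes), the median log2 fold change was 0.05, 0 passed the adjusted threshold (0% of all genes), and 0 had an unadjusted p under 0.05 in either direction (1.33% and 2.11% of all genes). In 0 members did the mice of these groups stand apart, against 3.66% of all genes higher and 6.71% lower. The count of higher members was 8 without control+L-Arg mouse 3, 12 without control mouse 2 and 33 without control+L-Arg mouse 1, so the direction turned on single mice. The effect of L-Arg with DSS minus its effect without DSS was above 0 for 32 of the 35 members (61.1% of all genes), with a median of 0.70 (0.06 over all genes). None passed the adjusted threshold for this difference (0.01% of all genes higher and 0.0652% lower), and 15 had an unadjusted p under 0.05, all higher, against 6.62% of all genes, Irf7 also with p under 0.01 and a fold change over 2 (0.191% of all genes). The 15 became 7 without control+L-Arg mouse 1, 8 without control mouse 1 and 8 without DSS+L-Arg mouse 1. With a mouse left out, the share of all genes was not counted for either contrast.

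The interferons themselves and their receptors did not pass the test. Of 21 listed interferon ligands, 16 were measured, and 2 of these were above the median of all genes. Ifnb1, the gene of interferon beta, was at 4.78, 4.92 and 4.88 in the DSS+L-Arg mice, 4.82, 4.84 and 4.80 in the DSS mice, 4.72, 4.92 and 4.92 in the control+L-Arg mice, and 4.97, 4.93 and 4.79 in the control mice. Ifng, the gene of interferon gamma, lay between 5.36 and 5.59 in all 12 mice. All groups overlapped for both genes. Set against DSS mice, the DSS+L-Arg mice had 2 of the 16 ligands higher at an unadjusted p under 0.05 and 0 lower, near the 7.99% and 5.53% of all genes. Of the 9 receptor and kinase genes measured, 0 passed the adjusted threshold in any comparison, and 1 was higher and 1 lower at an unadjusted p under 0.05 in DSS+L-Arg versus DSS, against the same shares of all genes.

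Of 15 sensing adaptors, kinases and IRFs, 1 fell and 0 rose in DSS versus control, and of 10 negative regulators 1 rose and 0 fell, against 2.23% of all genes lower and 1.8% higher. Mavs, the mitochondrial adaptor of RIG-I and MDA5, was at 10.25, 9.69 and 10.04 in the DSS mice and 10.79, 10.77 and 10.81 in the control mice, and it fell by 0.80 (SE 0.13, adjusted p = 0.00898). Socs3, an inhibitor of cytokine receptor signaling that is induced above all by STAT3, was at 9.19, 10.70 and 10.50 in the DSS mice and 7.25, 8.45 and 7.32 in the control mice, and it rose by 2.46 (SE 0.38, adjusted p = 0.00691). Among the sensing genes Irf8 rose by 0.63 in DSS+L-Arg versus control+L-Arg (SE 0.11, adjusted p = 0.0498). The calls of Mavs and Socs3 held with any 1 mouse left out, and neither passed in a fit of the DSS and control arrays alone (adjusted p = 0.0720 and 0.0807), and Socs3 differed by 1.63 with its probe sets averaged. The call of Irf8 was lost with the replicate number as a block (adjusted p = 0.0594), with median centring (0.0560), a further quantile normalization (0.0564), a trended prior (0.0545) or only the compared groups in the fit (0.0556), and with 9 of the 12 mice left out in turn (0.0503 to 0.219).

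Of 37 further interferon-induced genes measured, 2 rose and 1 fell in DSS versus control, against 1.8% and 2.23% of all genes. For DSS+L-Arg versus DSS, 26 of the 37 were higher on average (62.8% of all genes) with a median log2 fold change of 0.24, 0 rose and 2 fell by the adjusted threshold (0.115% and 0.522% of all genes), and 11 were higher and 6 lower at an unadjusted p under 0.05 (7.99% and 5.53%). Ifitm6, a member of the interferon-induced transmembrane family, was at 6.63, 5.77 and 6.53 in the DSS+L-Arg mice, 9.97, 9.03 and 11.58 in the DSS mice, and 5.77, 6.40 and 5.61 in the control mice. It rose by 4.27 in DSS versus control (SE 0.51, adjusted p = 0.00190) and fell by 3.88 in DSS+L-Arg versus DSS (SE 0.51, adjusted p = 0.0104). Ifitm1 rose by 2.38 (adjusted p = 0.00150) and fell by 1.88 (adjusted p = 0.0149) in the same comparisons, while Isg20, an exonuclease, fell by 0.67 in DSS versus control (adjusted p = 0.0275). Ifitm1 and Ifitm6 were lower in DSS+L-Arg than in DSS mice, while all 35 members had the higher mean in DSS+L-Arg mice. The call of Ifitm1 in DSS+L-Arg versus DSS was lost without DSS+L-Arg mouse 1, 2 or 3 (adjusted p = 0.0521, 0.0825 and 0.0933) and that of Ifitm6 without DSS+L-Arg mouse 2 (0.0631) or with only the compared groups in the fit (0.112). The call of Isg20 was lost without any 1 of the control mice or DSS mouse 2 (adjusted p = 0.0591 to 0.118) and in the fit of the DSS and control arrays alone (0.125). Of 12 genes of the MHC class I pathway outside the list, 1 rose and 0 fell in DSS versus control (1.8% and 2.23% of all genes). This was H2-Q4, higher by 0.51 (adjusted p = 0.0365). Its call was lost without any 1 of the control mice or DSS mouse 1 or 2. It was also lost without control+L-Arg mouse 1 or DSS+L-Arg mouse 3 (adjusted p = 0.0547 to 0.136 over these fits) and in that smaller fit (0.0969). At an unadjusted p under 0.05, 1 of the 12 was higher and 2 lower in DSS versus control (7.96% and 11.6% of all genes). In DSS+L-Arg versus DSS, 6 were higher and 1 lower (7.99% and 5.53%), with a median log2 fold change of 0.26, and 0 passed the adjusted threshold. Cxcl9 and Cxcl10, chemokines induced by interferon gamma, were not called in any comparison. Cxcl9 averaged 8.00 in DSS+L-Arg, 8.47 in DSS and 6.99 in control mice, and Cxcl10 averaged 8.06, 8.54 and 8.26. With Cxcl11, all 3 chemokines had the higher mean in DSS than in control mice, 1 at an unadjusted p under 0.05 (7.96% of all genes). Their median log2 fold change was 0.28 in DSS versus control and -0.47 in DSS+L-Arg versus DSS, where 1 of the 3 was higher.

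Myeloid markers were highest in DSS mice. Over 19 monocyte and macrophage markers, the median difference from the control mean was 0.30, 0.30 and 0.18 in the DSS+L-Arg mice, 1.03, 1.17 and 1.47 in the DSS mice, 0.28, -0.02 and 0.73 in the control+L-Arg mice, and -0.15, 0.07 and 0.04 in the control mice. In DSS+L-Arg versus DSS 6 of these markers fell by the adjusted threshold (0.522% of all genes), and in DSS versus control 12 rose (1.8% of all genes). Over 18 neutrophil markers the medians were 0.52, 0.14 and 0.29 in the DSS+L-Arg mice and 2.04, 1.35 and 4.27 in the DSS mice. In the same comparisons 4 of these markers were lower and 11 higher, against the same shares of all genes. Every DSS mouse was above every other mouse for both lists, and for the interferon-stimulated genes DSS mice 2 and 3 were below every other mouse. The medians of 15 epithelial markers lay within -0.06 and 0.06 of the control mean in all mice.

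**Figure D4:**
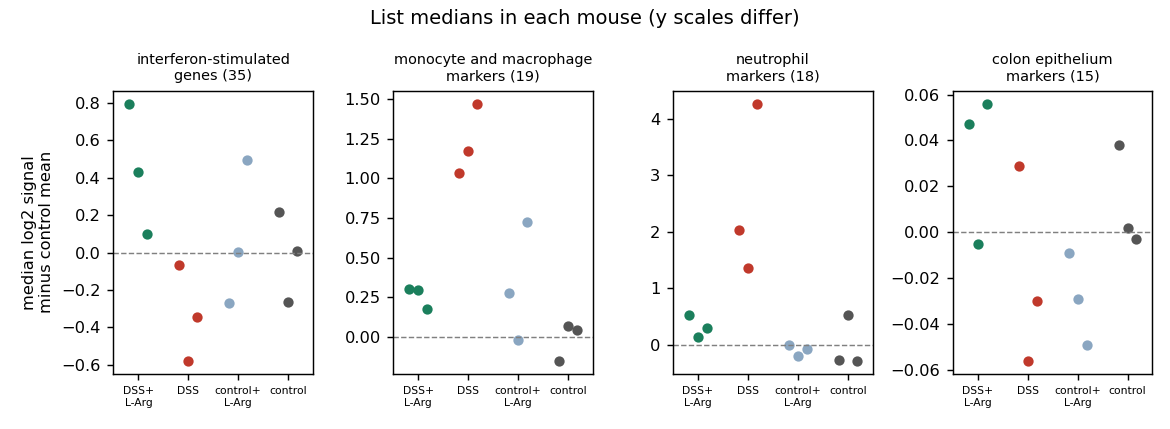
Median log2 signal minus control mean (y axis, scales differ) over the 35 interferon-stimulated genes, 19 monocyte and macrophage markers, 18 neutrophil markers and 15 colon epithelium markers, with a point for each of the 3 mice of the DSS+L-Arg, DSS, control+L-Arg and control groups. DSS mice include the lowest mice for the interferon-stimulated genes (-0.58 to -0.07) and are the highest for both lists of myeloid markers (1.03 to 1.47 and 1.35 to 4.27).

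The medians of 7 plasmacytoid dendritic cell markers, a cell type known for high interferon production, were 0.16, 0.22 and 0.08 in the DSS+L-Arg mice and 0.23, 0.20 and 0.06 in the DSS mice. The medians of 15 T and NK cell markers were 0.07, 0.26 and 0.40 in the DSS+L-Arg mice and 0.23, 0.02 and 0.14 in the DSS mice. The medians of 8 B and plasma cell markers were -0.08, 0.01 and -0.08 in the DSS+L-Arg mice, 0.42, -0.27 and 0.01 in the DSS mice, 0.77, -0.13 and 0.13 in the control+L-Arg mice, and 0.01, -0.10 and 0.08 in the control mice. The 9 smooth muscle markers were at -1.24, -0.27 and -0.97 in the DSS+L-Arg mice, -1.07, -0.96 and -1.63 in the DSS mice, and -0.30, -0.44 and 0.76 in the control mice, and 8 posterior Hox genes, whose level varies along the colon, ran between -1.18 and 0.86 over the 12 mice. The part of cell composition, muscle content and position along the colon in the values of the interferon-stimulated genes was not tested.

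The fold changes were then split by the elements in the promoter windows. In DSS+L-Arg versus DSS the median log2 fold change was 0.75 over the 13 genes with the element, with a range of 0.14 for Bst2 to 1.43 for Oas3, and 0.79 over the 12 without it, with a range of 0.54 for Irf1 to 1.65 for Oasl2. In DSS versus control these medians were -0.43 and -0.38. Over the 7 genes with a GAS the medians were 0.58 in DSS+L-Arg versus DSS and -0.16 in DSS versus control, and over the 18 without it they were 0.82 and -0.53. The genes were not sampled at random, and these medians are given as a description.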

How the data were processed

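Per the authors' processing notes the arrays went through Affymetrix Expression Console 1.1 with RMA (background correction, quantile normalization and summary by probe set), with build mm9 named. The deposited values are log2 signals per probe set, and quantile normalization hides a change shared by most genes. Of 35556 probe sets, 21789 carried 1 gene, 1621 carried several and 12146 were not in the platform table used here, so the last 2 kinds were left out. Symbols are those of that table. Each gene was represented by its brightest probe set, giving 19938 genes.

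Groups came from the sample labels. The test was limma (version 3.58.1, R 4.3.3) on a model with a mean for each group, fitted to the 12 arrays together (8 residual and 3.37 prior degrees of freedom). Calls used adjusted p values (Benjamini-Hochberg, all genes) under 0.05. The code was tested on simulated data. The methods of the study name SAM with p under 0.01 and fold change over 2. Those thresholds were applied to limma's p as an alternative, and SAM was not run here. Precision is set by the number of mice, since array signals have no depth. In each group the arrays differed by over 0.01 in at least 95.1% of genes, so none repeats another.

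The members and lists were chosen with earlier results of these data known. Any measured member could be named. Values in every mouse are given for measured members that were called and for measured members standing for a role. Up to 4 called genes are named per list. The alternatives were other call rules, a fit restricted to the compared groups, a replicate block, median centring, a further quantile normalization, a filter keeping genes that passed the 30th percentile in 3 or more arrays, averaging of probe sets, array weights, a prior that was trended and robust, and leaving out each mouse. The unadjusted p, the non-overlap of groups, the refits of named genes outside the members and a blocked fit of the control+L-Arg and control arrays were added after seeing the data. Promoter windows came from RefSeq GRCm38.p6 (Python 3.11.15, pandas 2.3.3). Plots were drawn with matplotlib 3.10.9.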

Additional observations from a re-analysis of the deposited data

How the results depend on the processing

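The number of members called in each comparison depended on the rule and on single mice. Shares of all genes were counted for the main fit only, so the counts from other fits stand without them. In DSS versus control, where 1 member was lower and 0 were higher, the counts were 6 and 1 at an unadjusted p under 0.05, 5 and 2 by groups that did not overlap, 0 lower in a fit of only the groups compared and 1 higher with array weights. Leaving out 1 mouse at a time gave 0 to 2 lower and 0 to 1 higher, with 0 lower without any 1 of the control mice or DSS mouse 2, 2 lower without control+L-Arg mouse 1 (Irf7 and Rsad2), and 1 higher without DSS mouse 2 (Iigp1). In DSS+L-Arg versus DSS, where 0 members were higher, the count was 24 at an unadjusted p under 0.05, 4 at p under 0.01 with a fold change over 2, 21 by groups that did not overlap, 2 with median centring (Irf7 and Ifi35), 1 with array weights (Mx1) and 0 to 5 with 1 mouse left out. In DSS+L-Arg versus control the count of higher members was 0, but 10, 2 and 12 by these 3 call rules and 3 with array weights (Mx1, Parp9 and Tap1). In DSS+L-Arg versus control+L-Arg it was 0, but 10, 2 and 10 by the call rules, 1 with median centring or array weights (Tap1), and 0 to 1 with 1 mouse left out (Psmb8 without DSS mouse 1, Tap1 without DSS mouse 3). For the effect of L-Arg after DSS minus that without DSS it was 0, but 15 at an unadjusted p under 0.05, 1 at p under 0.01 with a fold change over 2 (Irf7) and 0 to 1 with 1 mouse left out (Psmb8 without DSS mouse 1). No called value changed sign, and the cause of these changes was not tested except for the call rules, which differ by construction, and the smaller fits, which hold fewer arrays.

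The mice share replicate numbers across groups, and no label states a pairing. The correlations of same-numbered mice, as deviations from their group means over all genes, ran between -0.355 and 0.477 over 18 pairs, with 7 over 0.1, so the numbers were not taken to pair the mice in the comparisons with DSS. DSS+L-Arg mice 1 and 2 were over 0.1 with the same-numbered control (0.408 and 0.305) and control+L-Arg mice (0.351 and 0.206), and mouse 3 was not (-0.0496 and -0.281). All 3 pairs of control+L-Arg and control mice were also over 0.1 (0.205, 0.477 and 0.261). With a replicate block in a fit of those arrays alone, 0 members passed (lowest adjusted p = 0.597, Gbp3) and 1 was higher at an unadjusted p under 0.05. With the number as a replicate block over all arrays, 0 members were called in control+L-Arg versus control, or in DSS+L-Arg versus control or control+L-Arg. In that fit 1 member was higher in DSS+L-Arg versus DSS (Psmb9, adjusted p = 0.0418) and Irf7 was still called in DSS versus control (adjusted p = 0.0428). With array weights the median log2 fold change of the members was -0.22 in DSS versus control and 0.24 in DSS+L-Arg versus control, and Psmb8, Irf1 and Oasl2 differed by 0.59, 0.35 and 1.08 in DSS+L-Arg versus DSS. Bulk tissue and 3 mice a group limit every value.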
